A study of Mus musculus with 11 samples.

Results

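Genes of epidermal growth factor receptor (EGFR) signaling were measured by RNA sequencing in mice treated with imiquimod (IMQ). RNA levels do not measure ligand release or receptor activity. The 10 genes were chosen by symbol: the ligands *Areg*, *Ereg*, *Hbegf*, *Tgfa*, *Btc* and *Epgn*, the receptors *Egfr*, *Erbb2* and *Erbb3*, and the feedback inhibitor *Errfi1*. All 10 were found, once each, among the 45777 genes of the deposited table. The mice were BALB/c, female or male, bought at 6 to 8 weeks of age and treated at 8 to 10 weeks. Each received 62.5 mg of cream per day on shaved back skin and on the right ear, over 5 to 8 days, either Aldara with 5% IMQ, a TLR7 agonist used to model psoriasis, or Vaseline as vehicle. Whole skin gave 3 control libraries (replicates 1 to 3) and 3 IMQ libraries (replicates 4 to 6), and whole small intestine gave 3 control libraries (replicates 7 to 9) and 2 IMQ libraries (replicates 10 and 11). The study's methods name the back alone, and whether the sequenced skin came from the back or the ear is not given in the sources used here. The days of treatment of each mouse, on which labels and methods differ, and the tissues that came from the same mouse are not given either.

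The ligands of this family are made as membrane-anchored precursors, released by metalloproteases of the ADAM family, and bound by receptors on the same or neighboring cells. EGFR then pairs with itself or with ERBB2, which has no known ligand, or ERBB3, whose kinase is weak, and signals through the RAS-ERK cascade. In epidermis the pathway drives keratinocyte proliferation and migration, and in the intestinal epithelium it supports crypt proliferation and repair. ERRFI1, also known as MIG6, is induced by EGFR signaling and binds the activated receptor to shut it down.

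Libraries held 44995414 to 58526384 counts. The labels matched the tissues, since 8 keratinocyte markers summed to between 5081 and 13917 FPKM (fragments scaled by transcript length and library size) in skin and to at most 1.47 FPKM in small intestine. Skin control replicate 2 stood apart: its 7 enterocyte markers summed to 181 FPKM against 0.0412 and 0.0276 FPKM in the other control skins (4.27, 4.09 and 0.0476 FPKM in IMQ replicates 4, 5 and 6), and its 14 hair follicle markers to 49.5 FPKM against 661 and 1045 FPKM. The IMQ-treated skins had 30.3 to 36.0 FPKM of the same hair follicle markers. Because tissue was sequenced in bulk, more or fewer cells of a type and more or less RNA per cell cannot be told apart in any result given here.

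Of the 6 ligands, *Epgn*, *Ereg*, *Areg* and *Btc* lie next to each other within 375 kb of chromosome 5 (positions 91027517 to 91402994 of mm10/GRCm38). *Tgfa* is on chromosome 6, *Egfr* and *Erbb2* share chromosome 11, and *Erbb3* and *Errfi1* are on chromosomes 10 and 4.

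Promoter sequence from RefSeq on GRCm38.p6 was found for 7 of the 10 genes. The windows of 300 bases, 250 before and 50 after the start, were searched on both strands for the cAMP response element, spelled TGACGTCA, for the AP-1 element, spelled TGANTCA, and for the TATA box, spelled TATAAA. The spellings do not contain each other. *Areg* and the second of the 2 *Errfi1* windows each held a cAMP response element and a TATA box, and *Epgn* held a TATA box. The promoters shown are the members' windows that held a motif. The 250 bases before each start are given 5′ to 3′, with the matches in capitals, for *Areg* at chr5:91139349-91139598, *Errfi1* at chr4:150854820-150855069 and *Epgn* at chr5:91027267-91027516, all on the plus strand.
Areg: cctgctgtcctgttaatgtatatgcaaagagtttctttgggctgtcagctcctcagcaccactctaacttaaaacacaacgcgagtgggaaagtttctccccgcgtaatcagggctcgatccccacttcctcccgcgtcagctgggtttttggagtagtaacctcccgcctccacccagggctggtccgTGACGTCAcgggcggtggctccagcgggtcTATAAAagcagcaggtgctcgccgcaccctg
Errfi1: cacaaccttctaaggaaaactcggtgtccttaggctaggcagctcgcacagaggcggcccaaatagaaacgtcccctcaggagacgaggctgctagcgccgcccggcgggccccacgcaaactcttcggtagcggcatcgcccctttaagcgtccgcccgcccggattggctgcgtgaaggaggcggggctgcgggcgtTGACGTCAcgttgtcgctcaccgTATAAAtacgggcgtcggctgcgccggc
Epgn: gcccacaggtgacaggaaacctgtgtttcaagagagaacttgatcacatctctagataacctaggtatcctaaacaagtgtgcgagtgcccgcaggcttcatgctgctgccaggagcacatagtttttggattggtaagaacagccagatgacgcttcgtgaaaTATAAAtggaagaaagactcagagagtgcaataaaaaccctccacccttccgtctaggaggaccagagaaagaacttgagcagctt
The cAMP response element began 61 bases before the start of *Areg* and 51 bases before that of *Errfi1*, and the TATA box began 31, 28 and 86 bases before the starts of *Areg*, *Errfi1* and *Epgn*. Of all 32851 promoter windows, 1.79% held the cAMP response element, 13.6% the TATA box, 7.81% the AP-1 element and 0.170% both the cAMP response element and the TATA box. The AP-1 spelling was in none of the members' windows, and *Btc*, *Tgfa*, *Egfr* and *Erbb2* held none of the 3 motifs. A match describes the letters of the window and is not evidence of binding.

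The first question was where the 10 genes are expressed without IMQ. In control skin, the mean level was highest for *Erbb2* (24.2 ± 2.67 FPKM, SD, n = 3), followed by *Erbb3* (23.8 ± 5.37), *Errfi1* (20.3 ± 5.56), *Egfr* (16.0 ± 0.602) and *Ereg* (14.3 ± 12.8 FPKM). The remaining ligands were lower, with *Tgfa* at 5.49 ± 1.29, *Btc* at 3.74 ± 2.94, *Epgn* at 3.53 ± 1.23, *Hbegf* at 3.04 ± 0.357 and *Areg* at 1.77 ± 0.385 FPKM. In this order only *Hbegf* and *Areg* were neighbors whose libraries did not overlap. In control small intestine, *Erbb3* led with 68.5 ± 10.3 FPKM, followed without overlap by *Erbb2* (28.9 ± 3.89) and *Errfi1* (10.6 ± 2.66 FPKM). *Tgfa* (6.24 ± 0.413), *Areg* (3.76 ± 2.40), *Hbegf* (3.69 ± 0.770), *Egfr* (3.65 ± 0.298) and *Ereg* (3.38 ± 0.605 FPKM) overlapped each with the next. *Btc* (1.78 ± 0.309 FPKM) and *Epgn* (0.0348 ± 0.00217 FPKM, or 4 to 5 counts per library) stood apart below them.

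**Figure D1:**
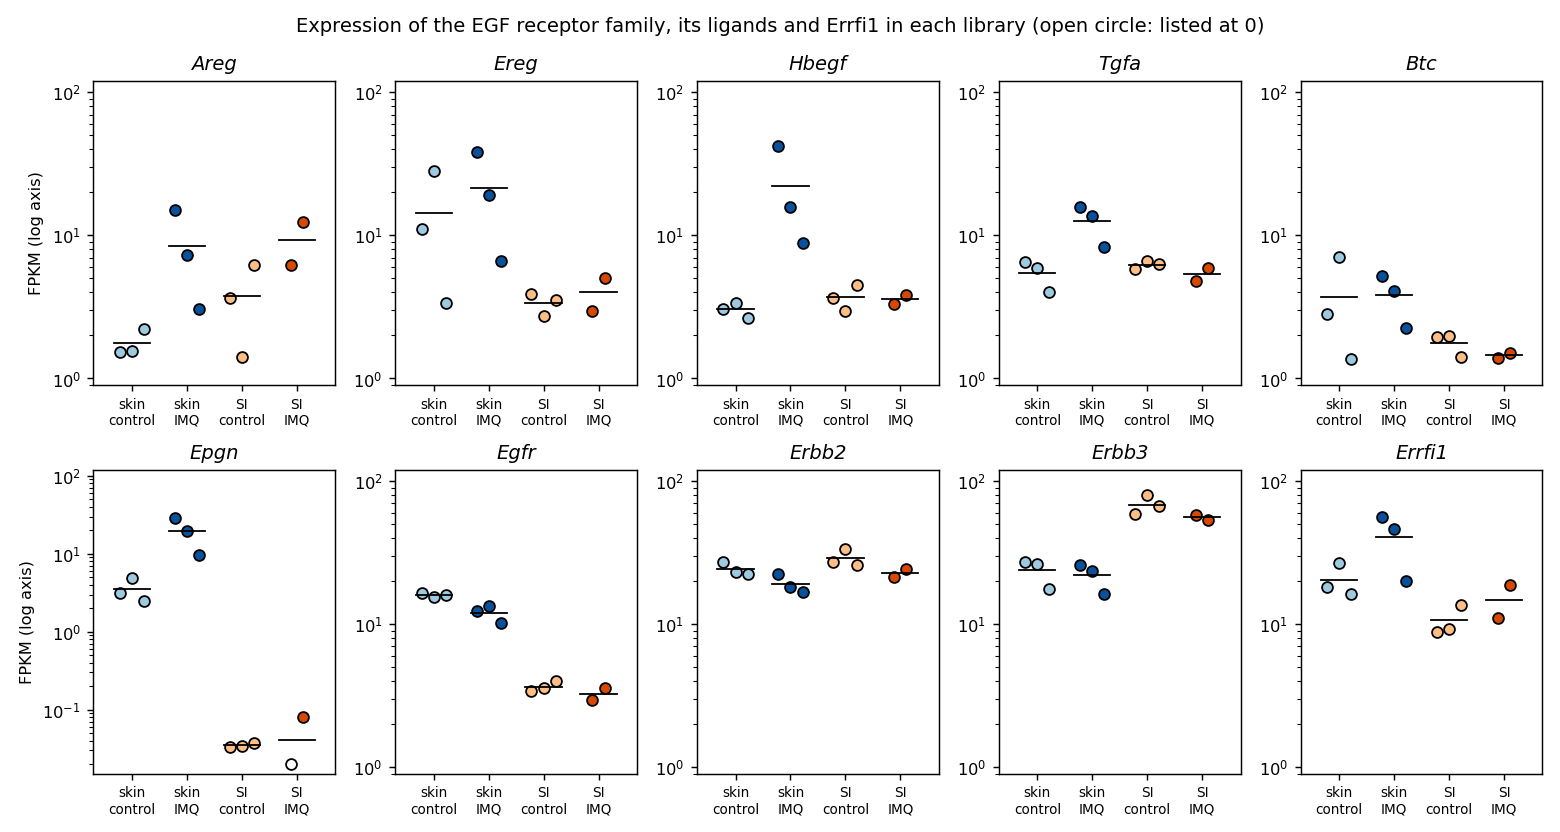
Level of each of the 10 genes in every library, in FPKM on a log axis; each point is a library, each line the mean of its group, and the open circle marks small intestine IMQ replicate 10, where Epgn was listed at 0. In skin the IMQ points of Hbegf, Epgn, Areg and Tgfa lie above all control points, whereas Erbb3 and Egfr are separated by tissue.

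Between the control tissues, 7 of the 10 genes passed edgeR's quasi-likelihood test at a Benjamini-Hochberg adjusted p under 0.05, against 51.9% of all genes tested. *Epgn*, which encodes epigen, a ligand of low affinity, had log2 5.86 ± 0.448 (SE) higher counts in skin (adjusted p = 3.46e-05), and *Egfr* log2 1.76 ± 0.146 (adjusted p = 4.98e-05). *Erbb3* was the clearest in the other direction, 3.91-fold higher in small intestine (log2 -1.97 ± 0.233 for skin against small intestine, adjusted p = 0.000278). *Erbb2* was 1.63-fold (adjusted p = 0.00348), *Areg* 2.99-fold (adjusted p = 0.0360), *Hbegf* 1.67-fold (adjusted p = 0.0379) and *Tgfa* 1.55-fold (adjusted p = 0.0339) higher in small intestine. *Ereg* (log2 1.67 ± 0.690), *Btc* (0.67 ± 0.565) and *Errfi1* (0.46 ± 0.285) did not pass. *Egfr* made up 23.3% to 28.7% of the FPKM of the 3 receptors in control skin and 3.06% to 4.10% in control small intestine, and *Erbb3* 31.5% to 40.6% and 65.8% to 69.0%.

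The direction of these differences held under every scaling, but the calls of *Erbb2*, *Areg*, *Hbegf* and *Tgfa* were lost on log2(FPKM + 0.01), which moved the median of all genes from 0.00 to 0.45 on the log2 scale and the share of called genes higher in skin from 49.5% to 71.3%. The call of *Hbegf* was also lost with TMM normalization (adjusted p = 0.0519). With 3 control libraries per tissue, leaving out skin control replicate 1 or small intestine replicate 7 or 9 left the 4 calls of *Epgn*, *Egfr*, *Erbb2* and *Erbb3*, which passed in all 6 such fits. *Areg* passed in 1 of the 6 (without small intestine replicate 8; adjusted p up to 0.138), with log2 -0.97 without small intestine replicate 9. *Hbegf* and *Tgfa* each passed in 2 of the 6 (adjusted p up to 0.142 and 0.0972), among them the fit without skin control replicate 2. *Ereg* was called without skin control replicate 3 (adjusted p = 0.00519) and by DESeq2, and *Errfi1* on log2(FPKM + 0.01) and log2(FPKM + 1) (adjusted p = 0.0118 and 0.0183).

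The second question was what differed with IMQ in the skin, where it was applied. Treated mice received Aldara and controls Vaseline, so IMQ and the rest of the Aldara cream cannot be told apart in either tissue. *Hbegf* and *Epgn* rose, and no receptor passed the test. *Hbegf*, the heparin-binding ligand that keratinocytes release at wounds, had 381, 451 and 328 normalized counts in the control skins and 5707, 2076 and 1128 in the IMQ-treated skins. The groups did not overlap, and the rise was 7.68-fold (log2 2.94 ± 0.581, adjusted p = 0.0336). *Epgn* had 283, 469 and 221 normalized counts in control and 2808, 1854 and 891 in IMQ-treated skins, again without overlap, a 5.72-fold rise (log2 2.52 ± 0.468, adjusted p = 0.0280). Of all genes tested in skin, 6.74% were called in either direction and 4.05% were called higher, against these 2 of 10.

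*Areg* encodes amphiregulin, a ligand made by keratinocytes and by several immune cells. Its normalized counts were 96.8, 107 and 139 in control skins and 1051, 488 and 199 in IMQ-treated skins. All IMQ-treated skins lay above all controls, yet replicate 6 was close to them, and the 5.06-fold difference (log2 2.34 ± 0.574) missed the threshold (adjusted p = 0.0602). *Tgfa* encodes TGF-α, the ligand long known from psoriatic epidermis. It had 1544, 1516 and 951 normalized counts in control and 4088, 3420 and 2009 in IMQ-treated skins, also without overlap (log2 1.25 ± 0.300, adjusted p = 0.0575). *Hbegf*, *Epgn*, *Areg* and *Tgfa* were thus 4 of 10 genes with all IMQ-treated skins above all controls, where 15.1% of all genes tested had this pattern.

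*Ereg* and *Btc*, which encode epiregulin and betacellulin, varied as much within the groups as between them. *Ereg* had 2382, 6588 and 722 normalized counts in control and 9125, 4328 and 1465 in IMQ-treated skins (log2 0.62 ± 0.866, adjusted p = 0.722). *Btc* had 425, 1134 and 203 in control and 861, 646 and 350 in IMQ-treated skins (log2 0.08 ± 0.620, adjusted p = 0.956). In both genes the highest control was replicate 2, the library with intestinal transcripts and few hair follicle transcripts, and without it the differences were log2 1.68 ± 0.859 for *Ereg* and 0.98 ± 0.474 for *Btc*, neither of which passed. In small intestine *Ereg* and *Btc* stood at 2.72 to 5.05 and 1.39 to 1.97 FPKM, and in this skin library at 28.4 and 7.02 FPKM. Whether its intestinal transcripts or its hair follicle state had a part in these values was not tested.

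*Egfr* was the gene with all IMQ-treated skins below all controls, a pattern found in 13.3% of all genes tested. It had 4979, 4979 and 4733 normalized counts in control and 3895, 4067 and 3006 in IMQ-treated skins (log2 -0.42 ± 0.137, adjusted p = 0.123). *Erbb2* (log2 -0.29 ± 0.163, adjusted p = 0.350) and *Erbb3* (-0.07 ± 0.258, adjusted p = 0.916) overlapped between the groups. *Errfi1* had 2882, 4553 and 2549 normalized counts in control and 9703, 7826 and 3270 in IMQ-treated skins (log2 1.06 ± 0.410, adjusted p = 0.184), with replicate 6 below control replicate 2. Over the 10 genes the median log2 difference was 0.84, beside -0.01 over all genes tested, and 6 of the 10 had an unadjusted p under 0.05, beside 23.2% of all genes.

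**Figure D2:**
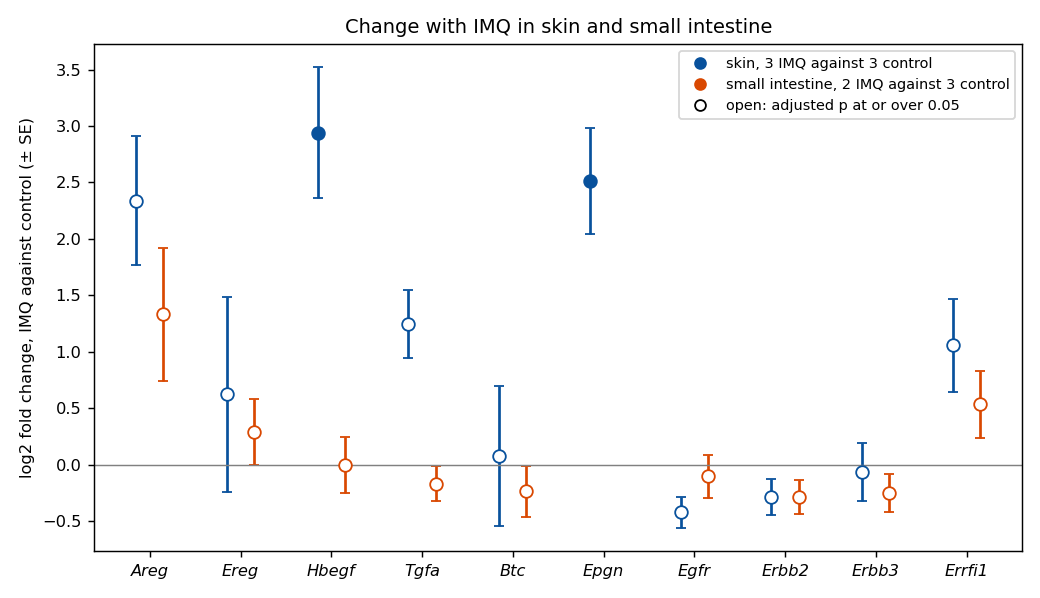
Log2 fold change of IMQ against control with its SE for each gene, in skin (blue) and small intestine (orange); filled points passed the threshold. Hbegf (2.94) and Epgn (2.52) in skin are filled, and Epgn has no point in small intestine because it was not tested there.

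The 3 IMQ-treated skins differed among themselves. Replicate 4 was the highest and replicate 6 the lowest in 9 of the 10 genes, all but *Egfr*, while 23.4% of all genes tested had this order. The order was taken from the members' own values, and several members vary together, so the 9 are not separate observations. The highest library exceeded the lowest by 5.83-fold for *Ereg*, 4.94-fold for *Areg*, 4.73-fold for *Hbegf*, 2.95-fold for *Epgn* and 1.31-fold for *Egfr* in FPKM. The keratinocyte markers followed the same order, with 13917, 13046 and 8190 FPKM in replicates 4, 5 and 6, beside 10175, 9710 and 5081 FPKM in control replicates 1, 2 and 3. Neutrophil markers, 5 genes in sum, were at 3150 to 3821 FPKM in IMQ-treated and 6.76 to 8.12 FPKM in control skins. Most of the IMQ sum was *S100a8*, with a mean of 3434.5 FPKM in IMQ-treated and 3.10 FPKM in control skins. *S100a8* is also read below among genes of activated keratinocytes, so the sum does not measure neutrophils alone. Macrophage markers were at 755 to 1049 FPKM in IMQ-treated and 365 to 516 FPKM in control skins. Of the 8 keratinocyte markers 1 was called higher in IMQ-treated skin, beside 3 of 5 macrophage markers and 4 of the 4 neutrophil markers tested. Mast cell and basophil markers, at 111 to 136 FPKM in control and 201 to 234 FPKM in IMQ-treated skins, were called higher in 4 of 5, and hair follicle markers lower in 4 of the 10 tested. Their part in the ligand differences was not tested. Of all genes tested in skin, 6.74% were called in either direction.

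**Figure D3:**
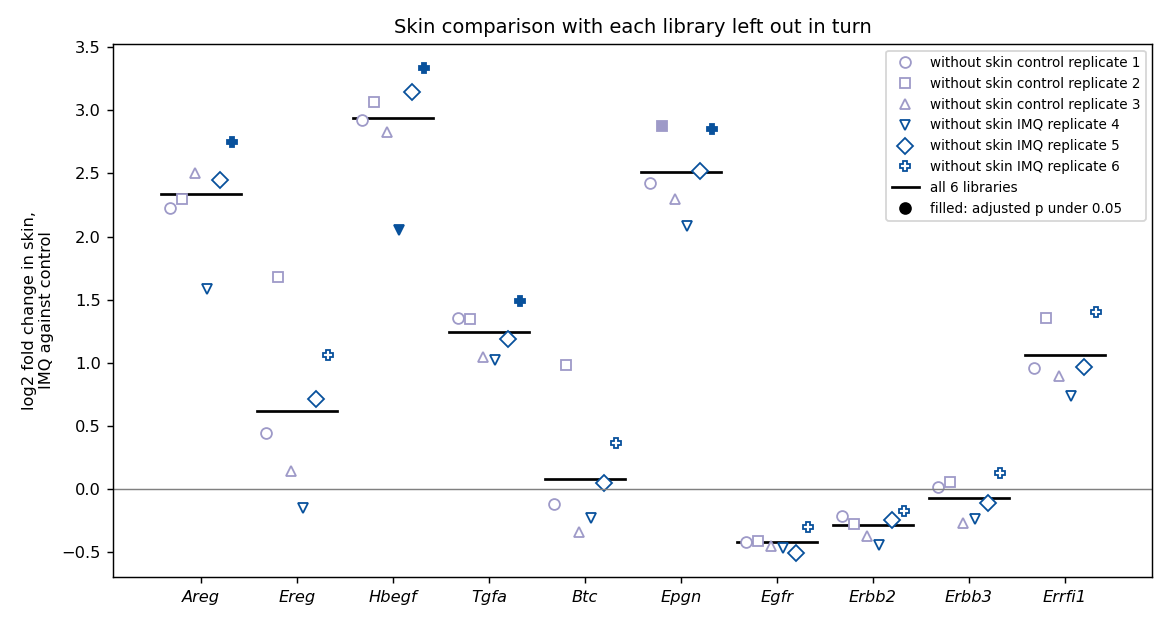
Log2 fold change in skin with each of the 6 libraries left out in turn; black lines are the fit of all 6, filled symbols passed the threshold. Hbegf, Epgn, Areg and Tgfa stayed above 0 in every fit, and the filled symbols are most frequent without IMQ replicate 6.

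The calls of *Hbegf* and *Epgn* depended on which libraries were included, and that of *Hbegf* also on the method. Without IMQ replicate 6, *Hbegf* (adjusted p = 0.0218), *Epgn* (0.0212), *Areg* (0.0255) and *Tgfa* (0.0382) passed. Without control replicate 2 only *Epgn* passed (adjusted p = 0.0230, *Hbegf* 0.0507), and without IMQ replicate 4 only *Hbegf* (adjusted p = 0.0337, *Epgn* 0.0735). Without control replicate 1 or 3 or IMQ replicate 5, no member passed. The log2 differences stayed between 2.05 and 3.33 for *Hbegf*, 2.09 and 2.88 for *Epgn*, 1.59 and 2.75 for *Areg*, and 1.03 and 1.49 for *Tgfa*. DESeq2 called all 4.

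The summed level of the 6 ligands was 28.1, 51.2 and 16.2 FPKM in the control skins and 146, 79.7 and 38.8 FPKM in the IMQ-treated skins. The sums overlapped, since control replicate 2 exceeded IMQ replicate 6, and *Ereg* alone made up 55.4% of that control sum. Within the sum, the shares of *Epgn*, *Hbegf* and *Btc* did not overlap between the groups, whereas those of *Areg*, *Ereg* and *Tgfa* did. *Epgn* contributed 9.57% to 15.5% in control and 19.8% to 25.1% in IMQ-treated skins, and *Hbegf* 6.60% to 16.5% and 19.9% to 28.9%, whereas *Btc* contributed 8.42% to 13.7% and 3.60% to 5.84%. A share falls when other ligands rise, and *Btc* itself differed by log2 0.08 in skin. The 3 receptors summed to 71.2, 64.9 and 55.9 FPKM in control and 60.8, 55.1 and 43.2 FPKM in IMQ-treated skins.

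**Figure D4:**
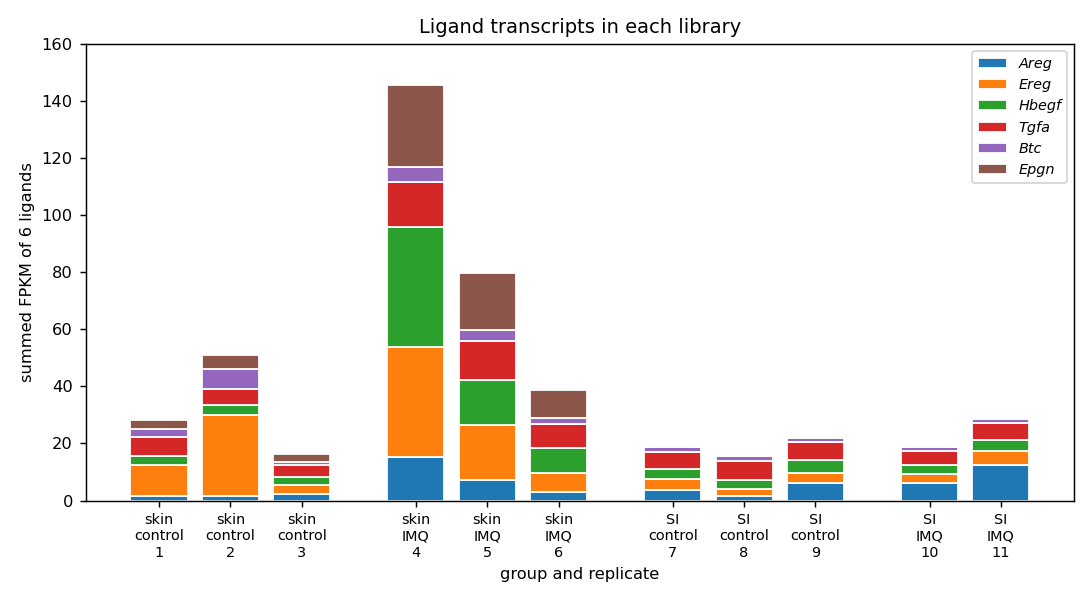
Summed FPKM of the 6 ligands in each of the 11 libraries, stacked by ligand. The sum reaches 146 FPKM in skin IMQ replicate 4 and lies between 15.7 and 28.8 FPKM in all small intestine libraries.

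The third question was whether the same genes moved in the small intestine, to which the cream was not applied. None of the 9 members tested was called by edgeR or DESeq2, and none had an unadjusted p under 0.05, beside 2.95% of all genes called and 12.3% with an unadjusted p under 0.05. *Areg* showed the widest difference, with 259, 94.8 and 456 normalized counts in control and 436 and 927 in IMQ-treated small intestine (log2 1.33 ± 0.589, adjusted p = 0.430). Control replicate 9 lay above IMQ replicate 10, so the groups overlapped. In FPKM *Areg* made up 9.01% to 28.3% of the ligand sum in control and 33.3% and 42.8% in IMQ-treated small intestine. No control library reached the IMQ values on this scale. The share of *Tgfa* was lower in both IMQ libraries than in all controls (25.7% and 20.6% against 28.6% to 42.2%). So was that of *Hbegf* (17.8% and 13.4% against 18.8% to 20.4%), and the shares of *Ereg*, *Btc* and *Epgn* overlapped. A share falls when another ligand rises. *Errfi1* had 1626, 1567 and 2559 normalized counts in control and 1967 and 3590 in IMQ-treated small intestine (log2 0.53 ± 0.301, adjusted p = 0.573), with control replicate 9 above IMQ replicate 10.

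*Hbegf* had 505, 384 and 645 normalized counts in control and 454 and 569 in IMQ-treated small intestine, a log2 difference of -0.00 ± 0.251. *Tgfa* (log2 -0.17 ± 0.155), *Ereg* (0.29 ± 0.293), *Btc* (-0.23 ± 0.227) and *Egfr* (-0.10 ± 0.188) also overlapped between the groups. In normalized counts, no gene of the 10 had both IMQ libraries above all controls, a pattern of 15.1% of all genes tested. In FPKM *Areg* did, narrowly, with 3.63, 1.42 and 6.22 FPKM in control and 6.25 and 12.3 FPKM in IMQ-treated small intestine. *Erbb2* and *Erbb3* had both below all controls in normalized counts, as did 13.9% of all genes. *Erbb2* had 8017, 9082 and 7866 normalized counts in control and 6117 and 7539 in IMQ-treated small intestine (log2 -0.29 ± 0.151, adjusted p = 0.539). *Erbb3* had 20786, 25966 and 24227 in control and 19894 and 19838 in IMQ-treated small intestine (log2 -0.25 ± 0.167, adjusted p = 0.651). *Epgn* was not tested, with 4, 4 and 5 counts in control and 0 and 8 counts in IMQ-treated libraries.

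Macrophage markers were at 190 to 256 FPKM in control and 420 and 441 FPKM in IMQ-treated small intestine, with 3 of 5 called higher. The sum of 7 enterocyte markers was 7845 to 13305 FPKM in control and 18231 and 21108 FPKM in IMQ-treated small intestine, but none of the 7 was called and their median log2 difference was -0.04. The sums of goblet cell (2076 to 2518 against 1675 and 1616 FPKM), Paneth cell (13865 to 16620 against 11595 and 10202 FPKM) and intestinal stem cell markers (280 to 360 against 231 and 203 FPKM) were lower in both IMQ libraries than in all controls. Of these, 1 of 5 goblet cell markers was called lower, and none of 5 Paneth cell or 4 stem cell markers was called. The T cell sum was also lower, narrowly (23.47 to 35.5 against 23.46 and 22.1 FPKM), with none of 6 markers called. Neutrophil markers were higher (6.75 to 8.03 against 14.4 and 12.9 FPKM), with 1 of 3 tested called. The part of these cell types in the values of *Areg*, *Erbb2* and *Erbb3* was not tested. Of all genes tested in small intestine, 2.95% were called in either direction.

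The difference between the tissues was tested itself, as an interaction in a fit of all 11 libraries. None of 9 members passed edgeR's test, beside 2.55% of all genes, and 2 had an unadjusted p under 0.05, beside 16.9% of all genes. *Hbegf* came closest, with a lower response in small intestine than in skin (log2 -2.93 ± 0.729, adjusted p = 0.0635), followed by *Tgfa* (-1.40 ± 0.394, adjusted p = 0.0966). DESeq2 called both (adjusted p = 0.000885 and 0.0167), as did edgeR without skin IMQ replicate 6 (adjusted p = 0.0178 and 0.0298), and edgeR called *Hbegf* without skin control replicate 2 (adjusted p = 0.0494). For *Areg*, log2 2.34 in skin and 1.33 in small intestine, the difference of -0.998 ± 0.930 was within its error (adjusted p = 0.657), and for *Errfi1* it was -0.51 ± 0.597. *Epgn* did not pass the filter on low counts in small intestine. With filterByExpr or without a filter, its difference in response was log2 -2.59 ± 1.30 (adjusted p = 0.385) or -2.58 ± 1.25 (adjusted p = 0.481).

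Over the 11 libraries, each gene centered on its tissue mean, *Hbegf* and *Tgfa* varied together (Pearson r = 0.929 across libraries, log2 normalized counts), as did *Ereg* and *Btc* (r = 0.915). *Areg* varied most closely with *Errfi1* among the members (r = 0.859) and *Hbegf* (r = 0.820). Among 15472 genes that had 10 or more counts in all libraries, those closest to *Areg* were *Noct* (r = 0.963), *Alas1* (r = 0.958) and *Ankrd42* (r = 0.952), and those closest to *Egfr* were *Smc1a* (r = 0.960), *U2surp* (r = 0.957) and *Zfp143* (r = 0.949). None of the promoter windows of these 6 genes held the cAMP response element or the TATA box as spelled above, beside 1.79% and 13.6% of all windows. At these shares, finding none in so few windows says little. The libraries share treatment, tissue makeup and preparation, so these values describe likeness only.

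On chromosome 5 the ligands have chemokine genes as neighbors. Of the 9 protein-coding genes within 300 kb of the ligands, 5 were tested in skin and 2 were called: *Cxcl5* (log2 7.01 ± 0.738, adjusted p = 0.00499) and *Cxcl1* (log2 4.13 ± 0.256, adjusted p = 0.00129), which encode attractants of neutrophils. Of all genes tested, 6.74% were called in skin and 2.95% in small intestine. *Cxcl2* and *Mthfd2l* lie between *Cxcl1* and *Epgn*. *Cxcl2*, another neutrophil attractant, had a mean of 0.215 FPKM in control and 7.70 FPKM in IMQ-treated skin and was not tested there. *Mthfd2l*, next to *Epgn*, differed by log2 0.02 ± 0.181 in skin. In small intestine 7 of the neighbors were tested and *Cxcl1* was called (log2 1.91 ± 0.371, adjusted p = 0.0437), while *Areg*, 112 kb beyond the *Epgn* start, was not.

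**Figure D5:**
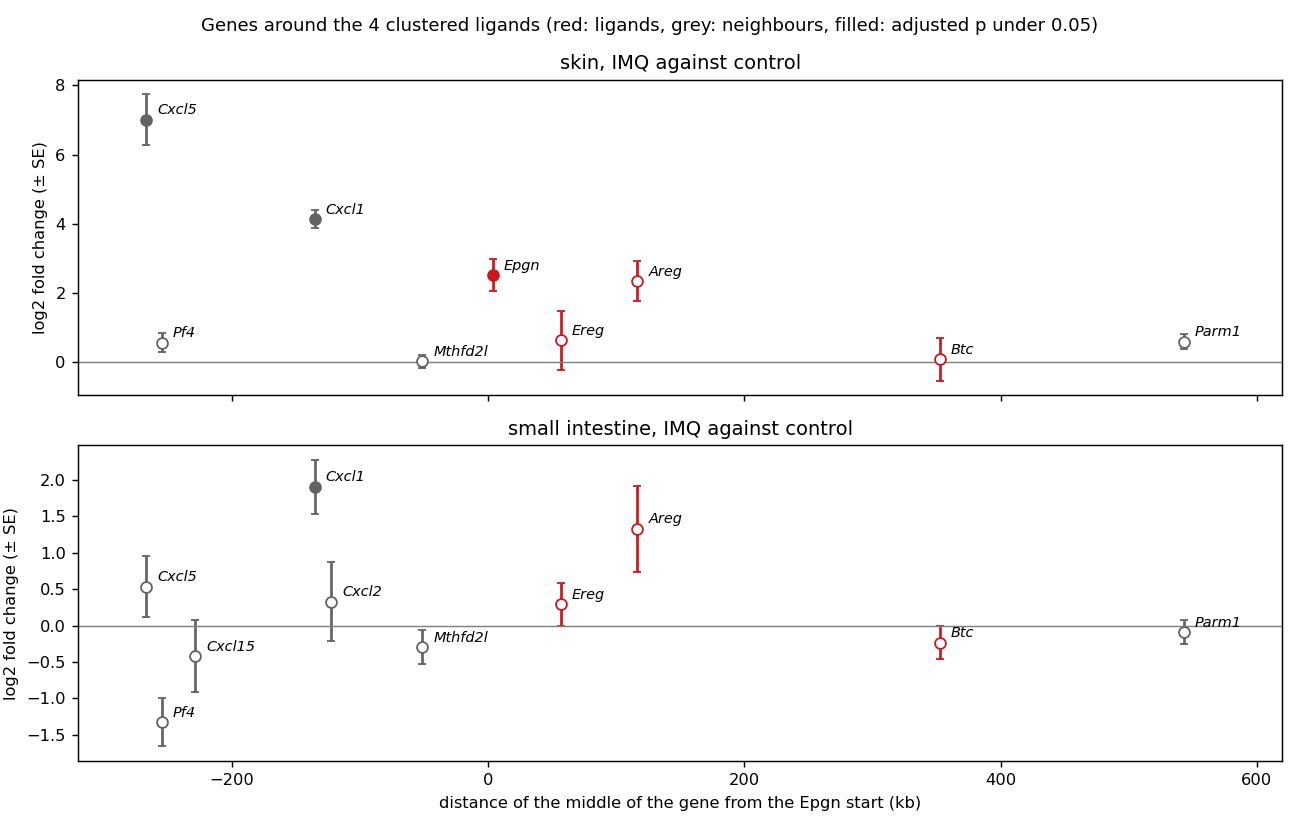
Log2 fold change with SE of the genes around the clustered ligands against distance from the Epgn start in kb, in skin (top) and small intestine (bottom); red points are ligands, grey points neighbors, filled points passed the threshold. In skin Cxcl5 (7.01), Cxcl1 (4.13) and Epgn (2.52) are filled, and Mthfd2l, next to Epgn, is at 0.02; genes that were not tested, such as Cxcl2 in skin, have no point.

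Other genes of the pathway were read from lists, beside 6.74% of all genes called in skin and 2.95% in small intestine. Of 6 further ErbB genes, 5 were tested in skin, where *Nrg1*, a ligand of ERBB3, rose (log2 2.72 ± 0.389, adjusted p = 0.0124, from 0.167 to 1.33 FPKM) and *Nrg2* fell (log2 -0.90 ± 0.184, adjusted p = 0.0361). *Egf* was at 1.98 FPKM in control and 1.71 FPKM in IMQ-treated skin and *Erbb4* at 0.0243 and 0.0133 FPKM, neither called. *Nrg4* was at 7.42 FPKM in control and 3.84 FPKM in IMQ-treated skin and was not called either (log2 -0.91 ± 0.342, adjusted p = 0.174). In small intestine none of 4 was called by edgeR or DESeq2 and 0 had an unadjusted p under 0.05, with the smallest p for *Nrg4* (log2 0.88 ± 0.447, adjusted p = 0.512) and *Nrg2* (log2 -0.20 ± 0.252, adjusted p = 0.850).

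Among 10 genes of ligand shedding, *Adam8* (log2 1.29 ± 0.235, adjusted p = 0.0265) and *Adam15* (0.51 ± 0.114, adjusted p = 0.0462) rose in skin and *Timp3*, an inhibitor of ADAM17, fell (-1.27 ± 0.169, adjusted p = 0.0105). In small intestine *Rhbdf2*, whose product iRhom2 carries ADAM17 to the cell surface, rose (log2 0.91 ± 0.123, adjusted p = 0.00855) and no other gene of this list was called. The median of the list was 0.24 in skin and 0.08 in small intestine, beside -0.01 and -0.02 over all genes. Of all genes, 6.74% were called in skin and 2.95% in small intestine.

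Of 16 genes listed under receptor feedback and degradation, 3 rose and 3 fell in skin, beside 6.74% of all genes called in either direction. Whether the listed genes acted on EGFR here was not tested. *Socs3* rose (log2 1.52 ± 0.188, adjusted p = 0.00845), as did *Sh3kbp1* (0.76 ± 0.159, adjusted p = 0.0385). *Lrig1*, a membrane inhibitor of EGFR found in stem cells, fell (-0.83 ± 0.126, adjusted p = 0.0154), as did the phosphatase gene *Ptprk* (-0.80 ± 0.118, adjusted p = 0.0137). In small intestine *Ptpn1* (1.35 ± 0.127, adjusted p = 0.00159) and *Sh3kbp1* (1.03 ± 0.157, adjusted p = 0.0152) rose and none fell. Of all genes tested there, 2.95% were called.

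Genes of the cascade below the receptor were read against the 6.74% of all genes called in skin and the 2.95% in small intestine. The list of 20 adaptor and RAS-ERK genes also held genes outside that cascade, among them *Stat3*. Of these 20, *Stat3* (log2 0.74 ± 0.148, adjusted p = 0.0342) and *Map2k1* (0.56 ± 0.0981, adjusted p = 0.0246) rose in skin. In small intestine none was called by edgeR or DESeq2 and 1 had an unadjusted p under 0.05, that of *Grb2* (0.39 ± 0.124, adjusted p = 0.225). Of 13 ERK feedback genes, *Dusp7* rose in skin (1.04 ± 0.237, adjusted p = 0.0498) and *Dusp2* in small intestine (3.26 ± 0.308, adjusted p = 0.00162), each a phosphatase of ERK. Of 20 early ERK target genes, *Fosl1* (4.30 ± 0.910, adjusted p = 0.0403), *Atf3* (1.98 ± 0.304, adjusted p = 0.0160) and *Myc* (0.75 ± 0.142, adjusted p = 0.0302) rose in skin, with a list median of 0.73. In skin 10 of these 20 had an unadjusted p under 0.05, beside 4 of 20 adaptor and RAS-ERK genes, 3 of 13 ERK feedback genes and 23.2% of all genes, and DESeq2 called 6 of the early targets higher and 1 lower. In small intestine none of 19 was called by edgeR, 2 were by DESeq2 and 4 had an unadjusted p under 0.05, and *Ccnd1* (-0.93 ± 0.198, adjusted p = 0.0636) and *Etv5* (1.05 ± 0.248, adjusted p = 0.0932) came closest. In all, 12 of 84 pathway genes tested in skin were called higher and 5 lower, and 4 of 82 higher and 0 lower in small intestine, beside 6.74% and 2.95% of all genes called in either direction.

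Genes of activated keratinocytes were read last, beside 6.74% of all genes called in skin. Of 8 tested in skin, 7 rose, led by *S100a8* (log2 10.16 ± 0.484, adjusted p = 0.000539), *S100a9* (9.46 ± 0.261, adjusted p = 7.60e-05), *Krt6b* (5.24 ± 0.634, adjusted p = 0.00770) and *Krt16* (4.63 ± 0.513, adjusted p = 0.00579). The first 2 are also abundant in neutrophils, and *S100a8* is among the neutrophil markers counted above. In small intestine only *S100a9* was tested (log2 2.24 ± 0.639, adjusted p = 0.164).

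Of the members, 6 overlap another annotated gene: *Ereg* with Gm19610, *Hbegf* with Gm41698, *Egfr* with Gm39584 and Egfros, *Erbb2* with Mien1, *Erbb3* with Mir6917 and *Errfi1* with 1700045H11Rik. The library kit kept strand, but whether counting used it is not given in the sources used here, so reads of such pairs cannot be told apart.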

How the data were processed

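RNA of skin and small intestine was sequenced in 11 libraries, grouped by tissue and treatment from the sample labels. Per the labels, the authors demultiplexed with bcl2fastq 2.20.0, trimmed with Trimmomatic, aligned to mm10 with HISAT2 2.1.0 and quantified with StringTie 2.1.3b. They deposited 1 table with whole-number read counts, not normalized, the FPKM computed by the authors per transcript length and library size, and the deposited TPM, which keeps no depth and was not used. How counts were derived and whether strand or multiply mapping reads were considered is not given in the sources used here, which matters for overlapping genes.

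Genes counted at 1 or more in all libraries of a comparison were normalized by relative log expression and tested with edgeR 4.0.16 (quasi-likelihood test, R 4.3.3), Benjamini-Hochberg adjusted over all genes tested, threshold 0.05. Comparisons were IMQ against control in each tissue, their difference (interaction), and control skin against control small intestine. SE is the log2 fold change divided by the square root of F. Levels between genes were compared in FPKM. Alternatives were TMM, DESeq2 1.42.0, filterByExpr, no filter, limma 3.58.1 on log2(FPKM + 0.01) and log2(FPKM + 1), all 11 libraries in 1 fit, and each library left out. Scripts were tested on simulated data. Replicates of a group differed by more than sampling noise (chi-square per degree of freedom 34.0 to 231). Libraries held 44995414 to 58526384 counts, so spread between libraries, not counting, limits all members but Epgn in small intestine. Labels do not say that libraries are separate mice; the p-values measure the spread between libraries.

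The members and all gene lists were chosen with earlier results of these data known. Named besides the 10 members were, per list and tissue, at most 4 called genes with the largest change or, without calls, the 2 with the smallest p, the 3 genes most like Egfr and Areg, and the chromosome 5 neighbors, Egf, Erbb4 and, in skin, Nrg4, which were chosen after values were seen. Positions were taken from RefSeq on GRCm38 by gene identifier.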

Additional observations from a re-analysis of the deposited data

Results flagged for a closer look

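The tissues were compared in their response to IMQ by edgeR's quasi-likelihood test, as an interaction over 11 libraries. None of 9 members was called, beside 2.55% of all genes tested. Of 82 pathway genes from the lists, 2 were called with a higher and 2 with a lower response in small intestine. *S100a9*, the only activated keratinocyte gene tested, was called too. With 9 members tested, the lack of a call does not set them apart from the lists. A negative value means a lower response in small intestine than in skin. *Adam8*, a metalloprotease gene, differed by log2 -1.70 ± 0.384 (adjusted p = 0.0457). *Myc*, an early target of ERK signaling, differed by -1.20 ± 0.226 (adjusted p = 0.0214), having risen in skin by 0.75 with a value of -0.46 in small intestine. *S100a9* differed by -7.22 ± 0.696 (adjusted p = 0.000913). *Ptpn1*, a phosphatase gene, differed by 0.81 ± 0.159 (adjusted p = 0.0263), and it was called higher in both tissues. *Dusp2*, a phosphatase gene expressed in leukocytes, differed by 2.64 ± 0.494 (adjusted p = 0.0208).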

How the results depend on the processing

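No paired analysis was possible because the library numbers 1 to 11 are not shared between groups. Depth limited *Epgn* in small intestine, at 0 to 8 counts per library, and the number of libraries limited the rest. In skin, 1382 genes were called, 3030 by DESeq2 (1514 higher) and 894 by limma on log2(FPKM + 1), and 258 (without IMQ replicate 5) to 2521 (without control replicate 2) with a library left out. Members called in skin numbered 2, 4 by DESeq2, 1 by limma on log2(FPKM + 1), and 0 to 4 with a library left out. In small intestine, 588 genes were called, 1206 by DESeq2 (1006 higher) and 294 (without IMQ replicate 10) to 801 (without control replicate 7) with a library left out, while members called stayed at 0. For the difference between tissues, 462 genes were called, 1281 by DESeq2, 301 without a filter, and 144 (without small intestine IMQ replicate 10) to 1072 (without skin control replicate 2) with a library left out, and members called numbered 0, 2 by DESeq2, and 0 to 2 with a library left out. Between control tissues, 7 members were called, 4 with either FPKM scale (limma), and 4 to 6 with a library left out. The causes were not tested.

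Of the members, no called difference changed sign under any alternative. Among differences that were not called, *Hbegf* in small intestine was 0.0037 on the log2 scale with TMM, and these signs changed with the library left out, given as the lowest and highest log2 value. In skin they were *Ereg* (-0.15 to 1.68), *Btc* (-0.34 to 0.98) and *Erbb3* (-0.27 to 0.13). In small intestine they were *Ereg* (-0.21 to 0.67), *Hbegf* (-0.17 to 0.20), *Tgfa* (-0.39 to 0.028) and *Egfr* (-0.31 to 0.082). For the difference between tissues they were *Ereg* (-1.39 to 0.48), *Btc* (-1.22 to 0.14), *Erbb2* (-0.17 to 0.17) and *Erbb3* (-0.37 to 0.038), and between control tissues *Btc* (-0.26 to 1.11).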
